A study of Homo sapiens with 26 samples.

Results

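The RNA levels of 10 dual-specificity phosphatase genes, DUSP1, DUSP2, DUSP4, DUSP5, DUSP6, DUSP7, DUSP8, DUSP10, DUSP14 and DUSP16, were followed in HCT116 cells, a human colorectal carcinoma line. They were taken as a list of symbols from the 63086 genes of the count files and were found in all 26 libraries. Of the 10 genes, 9 were among the 9099 protein-coding genes tested, and DUSP10 was too low for that set. HCT116 cells carrying the Tet-OsTIR1-PURO cassette and labelled as knockouts of both paralogs, IGF2BP2 and IGF2BP3, expressed mCherry-tagged IGF2BP1 as WT, S181E, Y396E or RQ. S181E and Y396E put a glutamate in place of a serine or tyrosine of a disordered linker, and RQ puts glutamines in place of arginines of the first linker. Per the study's methods the knockout background came from single-cell clones, and each transgene was delivered by lentivirus and its cells sorted on a narrow mCherry gate, so a population is 1 sorted culture. Each population received 500 µM sodium arsenite for 2 h or PBS as control, with 3 libraries from independently plated dishes in each of the 8 groups, and parental HCT116 cells gave 1 library per treatment.

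MAP kinases relay growth factor and stress signals after a threonine and a tyrosine in their activation loop are phosphorylated. The dual-specificity MAP kinase phosphatases remove both phosphates. DUSP1, DUSP2, DUSP4 and DUSP5 are the inducible nuclear members, DUSP6 and DUSP7 are cytoplasmic and act on ERK, and DUSP8, DUSP10 and DUSP16 prefer the stress kinases JNK and p38. DUSP14 is a small atypical member without the kinase-docking domain of the others. Several of these genes are themselves transcribed in answer to MAP kinase signals, and their RNAs are short-lived. Arsenite binds thiol groups, causes oxidative stress, activates JNK and p38 and triggers stress granules.

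Total counts ranged from 22508145 to 50834401 per library. IGF2BP1 itself averaged 12.1 ± 2.27 CPM (a count scaled to a fixed library size) in WT control cells (SD, n = 3) and 14.4 to 18.6 CPM in the control cells of the mutants. With arsenite it averaged 29.2 ± 1.15 CPM in WT cells and 43.2 to 47.1 CPM in the mutants, so its level moved with both treatment and population, and its part in the results was not tested. The parental libraries held 0.347 and 0.645 CPM. The knockout labels could not be checked by these counts over whole genes. IGF2BP2 averaged 65.9 to 88.1 CPM in the 8 groups against 121 and 151 CPM in the parental libraries, while IGF2BP3 averaged 112 to 164 CPM against 92.2 and 110.2 CPM. Of 8 colon epithelial markers, EPCAM, CDH1, KRT8, KRT18, KRT19 and CDX2 were present, VIL1 and CDX1 were below 1 CPM, and 8 of 9 markers of other cell types were below 1 CPM in every library, with COL1A1 at 6.55 to 11.5 CPM. Y396E arsenite replicate 3 stood apart, with 13897 genes that had any count against at least 20850 in each other library, and results that rest on it are given with and without it. In such bulk samples, a smaller number of cells of one kind and less RNA per cell cannot be told apart.

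Promoter sequences of 8 of the 10 genes were found in RefSeq (GRCh38.p14), as the window from 250 bases before to 50 bases after the start site. No window was available for DUSP4 and DUSP5, so neither was searched. Windows are shown for the gene that rose most with arsenite, DUSP1, for its nuclear companion DUSP2, and for DUSP8, which fell in the same cells. DUSP7 and DUSP14 fell as well, and of these falling genes only DUSP8 had a match to the sites searched below. DUSP4, without a window, also fell. Windows were searched on both strands for the cAMP response element TGACGTCA, its core TGACG (which overlaps it), the AP-1 site TGANTCA, the paired heat shock units GAANNTTC and the CArG box. Capitals mark matches to the full cAMP response element or its core, and the DUSP2 window held none.
DUSP1 (chr5:172771146-172771445, minus strand): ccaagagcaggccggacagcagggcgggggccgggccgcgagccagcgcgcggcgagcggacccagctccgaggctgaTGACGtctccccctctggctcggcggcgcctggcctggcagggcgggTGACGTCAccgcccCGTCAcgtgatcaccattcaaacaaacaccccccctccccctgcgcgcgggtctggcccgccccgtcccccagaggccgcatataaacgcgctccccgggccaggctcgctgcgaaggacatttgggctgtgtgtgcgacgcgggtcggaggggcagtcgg
DUSP2 (chr2:96145391-96145690, minus strand): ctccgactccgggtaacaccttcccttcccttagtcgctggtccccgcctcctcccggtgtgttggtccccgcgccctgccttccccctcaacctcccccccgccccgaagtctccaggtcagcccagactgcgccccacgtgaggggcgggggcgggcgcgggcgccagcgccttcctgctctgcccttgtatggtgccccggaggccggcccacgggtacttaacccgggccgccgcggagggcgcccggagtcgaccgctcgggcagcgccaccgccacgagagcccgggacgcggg
DUSP8 (chr11:1572222-1572521, minus strand): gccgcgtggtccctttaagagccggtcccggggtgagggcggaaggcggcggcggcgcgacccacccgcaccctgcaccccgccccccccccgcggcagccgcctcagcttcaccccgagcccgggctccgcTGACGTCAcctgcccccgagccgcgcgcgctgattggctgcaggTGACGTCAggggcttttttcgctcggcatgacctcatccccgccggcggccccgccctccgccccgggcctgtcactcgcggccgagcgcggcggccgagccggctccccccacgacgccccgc
The full element occurred once in the DUSP1 window, starting at base -125 from the start site, and at bases -118 and -74 in the DUSP8 window. It was in none of the other windows and in 1.85% of 35116 RefSeq promoter windows. The core was in 24.6% of all windows, and among these genes it occurred outside DUSP1 and DUSP8 only in the second of 2 DUSP10 windows. AP-1 sites (7.71% of all windows), paired heat shock units (6.77%) and CArG boxes (1.29%) had no match in the windows of these genes. The letters describe the windows and do not show that a factor was bound. The pair of genes that shared the full element moved in opposite directions with arsenite.

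Levels are given as CPM after the libraries were scaled by the trimmed mean of M-values (TMM). Statements that libraries overlapped or lay apart refer to this scale. Scaling by library totals, where named, used the summed counts of the 9099 tested genes in each library without TMM factors. CPM of all counts, where named, divides by the total counts of a library. Differences are log2 fold changes ± SE from edgeR's quasi-likelihood test over the 24 mCherry-IGF2BP1 libraries. A gene was called at a Benjamini-Hochberg adjusted p under 0.05 over all 9099 genes together with a fold change over 1.2.

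The first question was how arsenite changed the phosphatase RNAs within each population. Of the 9 tested genes DUSP1 and DUSP2 rose most, DUSP6 rose by little in 3 populations, DUSP4, DUSP7, DUSP8 and DUSP14 fell, and DUSP5 was not called. DUSP10, tested apart because of its low counts, rose in all 4 populations, and in Y396E cells by more than DUSP2 (8.96-fold against 6.46-fold). In WT cells 3 of the 9 tested genes were called higher and 4 lower, where 36.3% of all tested genes were called higher and 35.9% lower. The counts were also 3 and 4 in S181E cells (background 32% and 33.3%), in Y396E cells (32.9% and 32.9%) and in RQ cells (37.1% and 35.8%), with DUSP16 in place of DUSP6 among the higher genes of Y396E cells. Without Y396E arsenite replicate 3 that DUSP16 call was lost, and 6 genes were called in Y396E cells in place of 7. The median log2 fold change of the 9 genes was -0.17 for WT, 0.05 for S181E, 0.01 for Y396E and 0.01 for RQ. Arsenite thus moved most tested genes past the threshold in each population, and the share of phosphatase genes called was near that background. The DUSP1 and DUSP2 changes lay far from that of the median gene, whose log2 fold change was between -0.03 and -0.01 in the 4 populations. Genes called in either direction also lie apart from that median, and the rank of DUSP1 and DUSP2 among all tested genes is not given here.

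**Figure D1:**
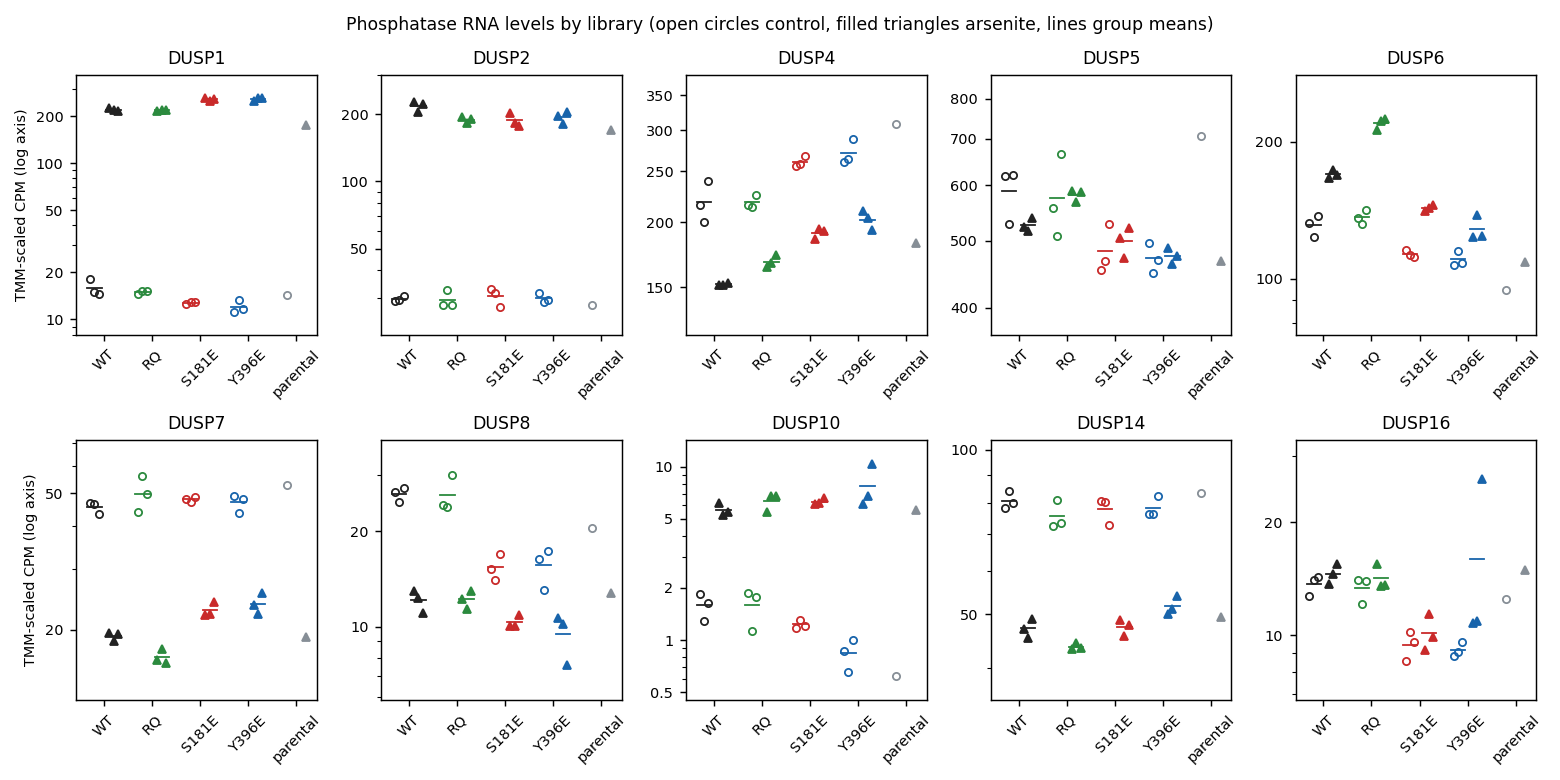
TMM-scaled CPM of each phosphatase gene on a log axis for every library, with open circles for control, filled triangles for arsenite, horizontal lines for group means of 3 libraries, and 1 parental library per treatment in grey. DUSP1, DUSP2, DUSP7, DUSP10, DUSP14 and, narrowly, DUSP8 separate fully by treatment over all libraries. DUSP5 does not, and 1 Y396E arsenite library sits apart at 26.1 CPM for DUSP16.

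DUSP1 (ENSG00000120129.6, chr5:172768096-172771195, minus strand) encodes a nuclear phosphatase for p38, JNK and ERK, and is the textbook early-induced member. Its 3 WT control libraries held 18.1, 15.0 and 14.6 CPM and the arsenite libraries 226, 219 and 217 CPM. In RQ cells the values were 14.5, 15.1 and 15.2 CPM in control and 215, 219.8 and 219.8 CPM with arsenite. These populations overlapped in both treatments. The S181E values were 12.6, 12.9 and 12.9 CPM in control and 263, 249.8 and 259 CPM with arsenite. Those of Y396E were 11.2, 13.3 and 11.7 CPM in control and 249, 260.1 and 262 CPM with arsenite. Both phosphomimetic populations thus lay below every WT library in control and above every WT library with arsenite. As CPM of all counts they overlapped WT in control and stayed above it with arsenite. The arsenite increase was 13.8-fold in WT cells (log2 fold change 3.79 ± 0.06), 14.6-fold in RQ cells (3.87 ± 0.06), 20.1-fold in S181E cells (4.33 ± 0.06) and 21.3-fold in Y396E cells (4.42 ± 0.07), with edgeR adjusted p of at most 4.07e-24.

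DUSP2 (ENSG00000158050.5, chr2:96143169-96145440, minus strand) encodes another inducible nuclear phosphatase, best known from activated immune cells. It held 29.2, 29.3 and 30.6 CPM in WT control libraries and 226, 205 and 222 CPM after arsenite. The control libraries of the 3 mutants lay between 27.5 and 33.0 CPM, across the WT range. Their arsenite libraries lay between 177 and 205 CPM, all below the lowest WT library, the nearest by a hairline (204.999 against 205.131 CPM). As CPM of all counts, Y396E replicate 3 (212.0) and S181E replicate 1 (206.1) lay above WT replicate 2 (202.5). The increase was 7.32-fold in WT cells (2.87 ± 0.07), 6.11-fold in S181E cells (2.61 ± 0.07), 6.46-fold in Y396E cells (2.69 ± 0.07) and 6.39-fold in RQ cells (2.68 ± 0.07). DUSP2 was therefore the second inducible nuclear gene that rose in all 4 populations, and it differed from DUSP1 in having no larger value in the phosphomimetic cells.

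DUSP4 (ENSG00000120875.9, chr8:29333064-29350684, minus strand) encodes a nuclear phosphatase for ERK and JNK, and it fell in all 4 populations. Its WT libraries held 215, 200.4 and 239.7 CPM in control and 151, 152 and 153 CPM with arsenite. S181E libraries held 257, 259 and 268 CPM and then 186, 194 and 192 CPM. Y396E libraries held 261, 264 and 288 CPM and then 209.9, 204 and 193 CPM. Every S181E and Y396E library was above every WT library of the same treatment. RQ libraries held 216, 214 and 225 CPM in control, within the WT range, and 164, 167 and 173 CPM with arsenite. The log2 fold changes with arsenite were -0.52 ± 0.05 for WT, -0.45 ± 0.05 for S181E, -0.42 ± 0.05 for Y396E and -0.38 ± 0.05 for RQ, with edgeR adjusted p of at most 3.74e-07. The RQ call was lost under scaling by library totals alone (-0.21).

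DUSP5 (ENSG00000138166.6, chr10:110497907-110511533, plus strand) encodes the nuclear phosphatase selective for ERK and was the most abundant of the 10 RNAs. WT control libraries held 619.7, 528 and 622 CPM, and WT arsenite libraries 523, 516 and 538 CPM, so the treatments overlapped. The S181E libraries ranged from 454 to 527 CPM in control and from 472 to 521 CPM with arsenite. Y396E libraries lay between 449 and 496 CPM and then between 462 and 488 CPM. The RQ control libraries spanned 508 to 665 CPM, around their arsenite libraries at 568 to 589.7 CPM. No population passed both thresholds for arsenite, with log2 fold changes of -0.17 ± 0.07 for WT (edgeR adjusted p = 0.043), 0.05 ± 0.07 for S181E, 0.01 ± 0.07 for Y396E and 0.01 ± 0.07 for RQ.

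DUSP6 (ENSG00000139318.8, chr12:89347235-89352501, minus strand) encodes the cytoplasmic phosphatase of ERK and is a common readout of ERK activity. The WT libraries held 133, 124 and 137 CPM in control and 166, 174 and 169 CPM with arsenite. RQ libraries held 136, 132 and 142 CPM and then 212, 222 and 224 CPM, above every other library. S181E libraries held 116, 113 and 112 CPM and then 141, 143 and 146 CPM. Y396E libraries held 108, 115 and 108 CPM and then 124, 138 and 124 CPM. The S181E and Y396E libraries were below every WT library of the same treatment on the TMM scale. As CPM of all counts this held with arsenite and not in control. There the WT libraries held 112.2, 96.3 and 119.8, S181E 110.9, 109.0 and 111.2, and Y396E 99.0, 110.7 and 105.3. DUSP6 rose 1.29-fold in WT cells (0.37 ± 0.05), 1.26-fold in S181E cells (0.34 ± 0.05) and 1.61-fold in RQ cells (0.68 ± 0.05). In Y396E the log2 fold change of 0.22 ± 0.05 (edgeR adjusted p = 0.000199) was under the fold threshold, and it passed with scaling by library totals (0.28).

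DUSP7 (ENSG00000164086.10, chr3:52048919-52056571, minus strand) encodes the second cytoplasmic phosphatase of ERK and moved against DUSP6. Its WT libraries held 46.6, 46.4 and 43.5 CPM in control and 19.5, 18.6 and 19.5 CPM with arsenite. Over the 3 mutants the control libraries ranged from 43.8 to 55.9 CPM. The arsenite libraries ranged from 22.1 to 24.1 CPM in S181E, from 22.2 to 25.6 CPM in Y396E and from 16.0 to 17.6 CPM in RQ, so that RQ lay below and the phosphomimetic populations above every WT arsenite library. The log2 fold changes were -1.25 ± 0.08 for WT, -1.07 ± 0.08 for S181E, -0.98 ± 0.08 for Y396E and -1.58 ± 0.08 for RQ, with edgeR adjusted p of at most 1.96e-11. The pair of cytoplasmic genes thus changed in opposite directions in WT, S181E and RQ cells, most widely in RQ cells.

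DUSP8 (ENSG00000184545.11, chr11:1554051-1572271, minus strand) encodes a phosphatase of JNK and p38 and fell in every population. WT libraries held 26.5, 24.8 and 27.4 CPM in control and 13.0, 12.3 and 11.0 CPM with arsenite. RQ libraries were alike, at 24.2, 23.8 and 30.1 CPM and then 12.2, 11.4 and 13.0 CPM. S181E libraries held 15.2, 14.0 and 17.0 CPM and then 10.0, 10.1 and 10.9 CPM. Y396E libraries held 16.4, 13.1 and 17.4 CPM and then 10.7, 10.2 and 7.57 CPM. All 6 phosphomimetic control libraries lay below all 6 WT and RQ control libraries. The log2 fold changes with arsenite were -1.12 ± 0.12 for WT, -1.09 ± 0.12 for RQ, -0.57 ± 0.13 for S181E and -0.73 ± 0.13 for Y396E, with edgeR adjusted p of at most 0.00024.

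DUSP10 (ENSG00000143507.18, chr1:221701424-221742089, minus strand) encodes a phosphatase of JNK and p38 found in nucleus and cytoplasm. It exceeded 10 CPM in 1 of 24 libraries, and its raw counts lay between 16 and 406 over all 26 libraries, so it was tested in a fit with a lower filter (over 1 CPM in at least 3 libraries, 12048 genes). WT libraries held 1.84, 1.29 and 1.64 CPM in control and 6.18, 5.30 and 5.47 CPM with arsenite. RQ libraries held 1.88, 1.12 and 1.77 CPM and then 5.51, 6.81 and 6.76 CPM. S181E libraries held 1.18, 1.31 and 1.21 CPM and then 6.06, 6.20 and 6.56 CPM. Treatments did not overlap in any population. In Y396E cells the control libraries held 0.866, 0.659 and 0.996 CPM (24, 16 and 32 reads), below every other mCherry-IGF2BP1 library. As CPM of all counts, Y396E control replicate 3 (0.968) lay above RQ control replicate 2 (0.860). The Y396E arsenite libraries held 6.13, 6.82 and 10.3 CPM. DUSP10 rose 3.46-fold in WT cells (1.79 ± 0.21), 3.92-fold in RQ cells (1.97 ± 0.21), 4.98-fold in S181E cells (2.32 ± 0.22) and 8.96-fold in Y396E cells (3.16 ± 0.23), the last with a log2 fold change of 2.91 without Y396E arsenite replicate 3. In that fit 32.9% of genes were called higher in WT, 33.9% for RQ, 29.2% for S181E and 30.8% for Y396E.

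DUSP16 (ENSG00000111266.9, chr12:12473282-12562863, minus strand) encodes the third phosphatase directed at JNK and p38. Its 3 WT libraries held 12.7, 14.1 and 14.3 CPM in control and 13.7, 14.6 and 15.5 CPM with arsenite. RQ libraries lay between 12.2 and 15.5 CPM in both treatments. S181E libraries held 8.55, 10.2 and 9.63 CPM and then 9.15, 11.4 and 9.89 CPM. In these 3 populations the treatments overlapped and no call was made. The Y396E libraries held 8.84, 9.01 and 9.62 CPM in control and 10.8, 11.0 and 26.1 CPM with arsenite. The Y396E change was called (0.80 ± 0.21, edgeR adjusted p = 0.00136), and without arsenite replicate 3 it was 0.25, under the fold threshold, so this call rested on 1 library. No JNK or p38 phosphatase other than DUSP8 fell, and DUSP10 rose in each population. The DUSP16 gene overlaps only opposite-strand genes with at most 9 counts in any library, and counting was strand-specific.

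DUSP14 (ENSG00000276023.5, chr17:37489891-37513501, plus strand), the small atypical phosphatase, fell by a similar amount everywhere. WT libraries held 78.3, 84.0 and 79.7 CPM in control and 47.1, 45.4 and 49.1 CPM with arsenite. Mutant control libraries ranged from 72.5 to 82.4 CPM, and mutant arsenite libraries ranged from 43.3 to 54.1 CPM. The treatments did not overlap. The log2 fold changes were -0.77 ± 0.06 for WT, -0.71 ± 0.06 for S181E, -0.60 ± 0.06 for Y396E and -0.79 ± 0.06 for RQ, with edgeR adjusted p of at most 7.8e-10.

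**Figure D2:**
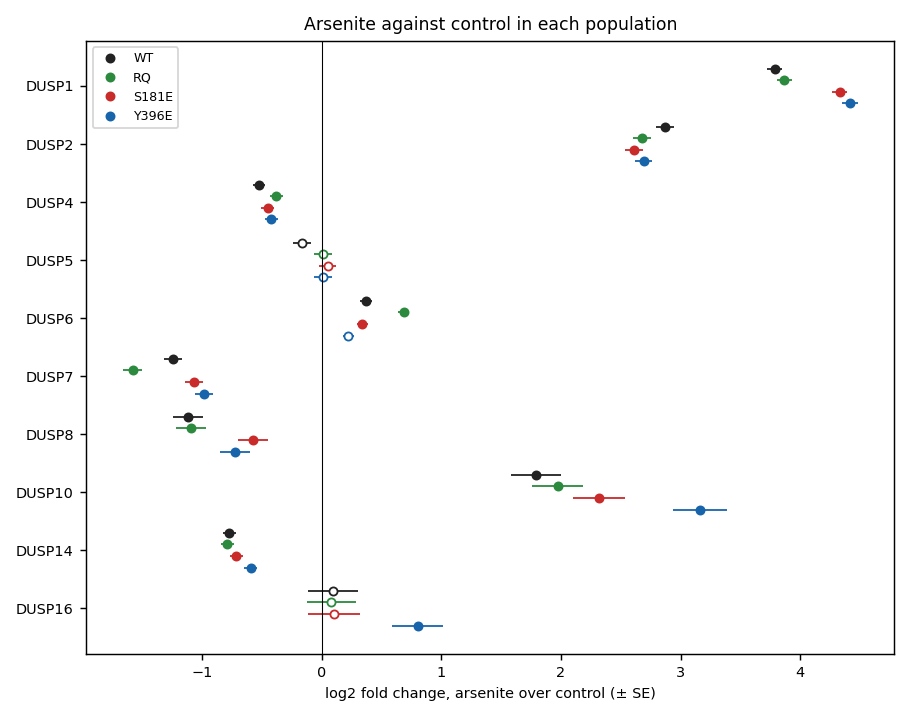
Log2 fold change of each gene, arsenite over control, with its SE for the 4 populations, where filled points are called and open points are not. DUSP1 lies between 3.79 and 4.42 and DUSP2 between 2.61 and 2.87, DUSP4, DUSP7, DUSP8 and DUSP14 lie below 0 in all 4 populations, and DUSP10 comes from the fit with the lower filter.

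The next comparisons asked how the mutant populations differed from WT before stress. Each population is 1 sorted culture, so an effect of the mutation and a difference between cultures cannot be told apart. The SE and p measure the spread between dishes of a culture. Both limits hold for every comparison between populations below. In S181E control cells 4 of the 9 tested genes were lower than in WT (background 15.4%) and 0 were higher (background 15.7%). In DESeq2, 0 members were called higher as well, and 1 of 9 was higher at an unadjusted p under 0.05 in edgeR. The genes that were lower were DUSP8 (-0.77 ± 0.12), DUSP16 (-0.53 ± 0.21), DUSP1 (-0.32 ± 0.07) and DUSP5 (-0.29 ± 0.07), which are both tested JNK and p38 phosphatases and 2 of the 4 nuclear genes. Of the other nuclear genes, DUSP4 was at 0.26 ± 0.05 (edgeR adjusted p = 0.000268), just under the fold threshold, and DUSP2 at 0.04 ± 0.07. In Y396E control cells the same 4 genes were lower than in WT (background 14.2%), with DUSP8 at -0.75 ± 0.12, DUSP16 at -0.58 ± 0.21, DUSP1 at -0.41 ± 0.07 and DUSP5 at -0.32 ± 0.07. DUSP4 was higher (0.31 ± 0.05), the only 1 of 9 in that direction (background 14.5%). The median log2 fold change of the 9 genes was -0.21 for S181E and -0.25 for Y396E, where that of all tested genes was 0.02 and 0.01. The phosphomimetic comparisons share the WT libraries, so their likeness is not independent. DUSP6 lay at -0.21 ± 0.05 for S181E and -0.25 ± 0.05 for Y396E, under the fold threshold in both, while DUSP2, DUSP7 and DUSP14 were not called. The share of counts on protein-coding genes moved with these populations. It was 89.5% to 91.7% in the WT and RQ control libraries, 94.7% to 95.9% in the S181E and Y396E control libraries and 97.0% to 98.3% in the arsenite libraries of all 4, and its part in the results was not tested.

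Several of these control differences depended on the scaling, whatever their size. Scaling by library totals alone, meaning totals of the tested genes, put the median log2 fold change of all tested genes at 0.18 in S181E and 0.14 in Y396E. That median was 0.15 for arsenite in WT and 0.16 for arsenite in RQ. It was -0.14 and -0.12 for the S181E and Y396E response differences described later. This scaling left DUSP5 at -0.13 and -0.20, DUSP16 at -0.38 and -0.45 and, in S181E, DUSP1 at -0.16, none of them called. DUSP8 in both populations, DUSP1 in Y396E and DUSP4 in Y396E kept their calls, and DUSP4 in S181E gained a call as higher (0.41). As CPM of all counts, DUSP1 held 10.3, 12.8 and 11.3 in Y396E control libraries and 15.3, 11.7 and 12.7 in WT control libraries, with overlap. No fit used the total counts of all genes as its scale. With scaling by library totals the S181E count was therefore 1 lower and 1 higher. Leaving out WT control replicate 1 also ended the S181E calls of DUSP1 (-0.21) and DUSP5 (-0.25), and leaving out WT control replicate 3 (-0.25) or S181E control replicate 1 (-0.25) ended that of DUSP5. The Y396E call of DUSP4 was lost without WT control replicate 2 (0.25). For DUSP16, the S181E call held in 18 of 24 fits that left out 1 library and the Y396E call in 19 of 24, with edgeR adjusted p up to 0.126 and 0.0771. It was lost with the lower filter on counts (adjusted p = 0.0532) or without any 1 of the 3 WT or 3 S181E control libraries in the first case, and without WT control replicate 2 or 3 or any 1 of the 3 Y396E control libraries in the second. In the fit with the lower filter, DUSP10 was lower in Y396E control cells (-0.92 ± 0.25, edgeR adjusted p = 0.00572, background 12.8%) and was not called in S181E (-0.37 ± 0.24).

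RQ control cells did not differ detectably from WT in any tested phosphatase gene. edgeR called 0 of 9 (background 1% higher and 0.429% lower), DESeq2 called 0, and 0 had an unadjusted p under 0.05, the lowest being 0.0919. The log2 fold changes lay between -0.10 ± 0.07 for DUSP1 and 0.13 ± 0.07 for DUSP7.

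**Figure D3:**
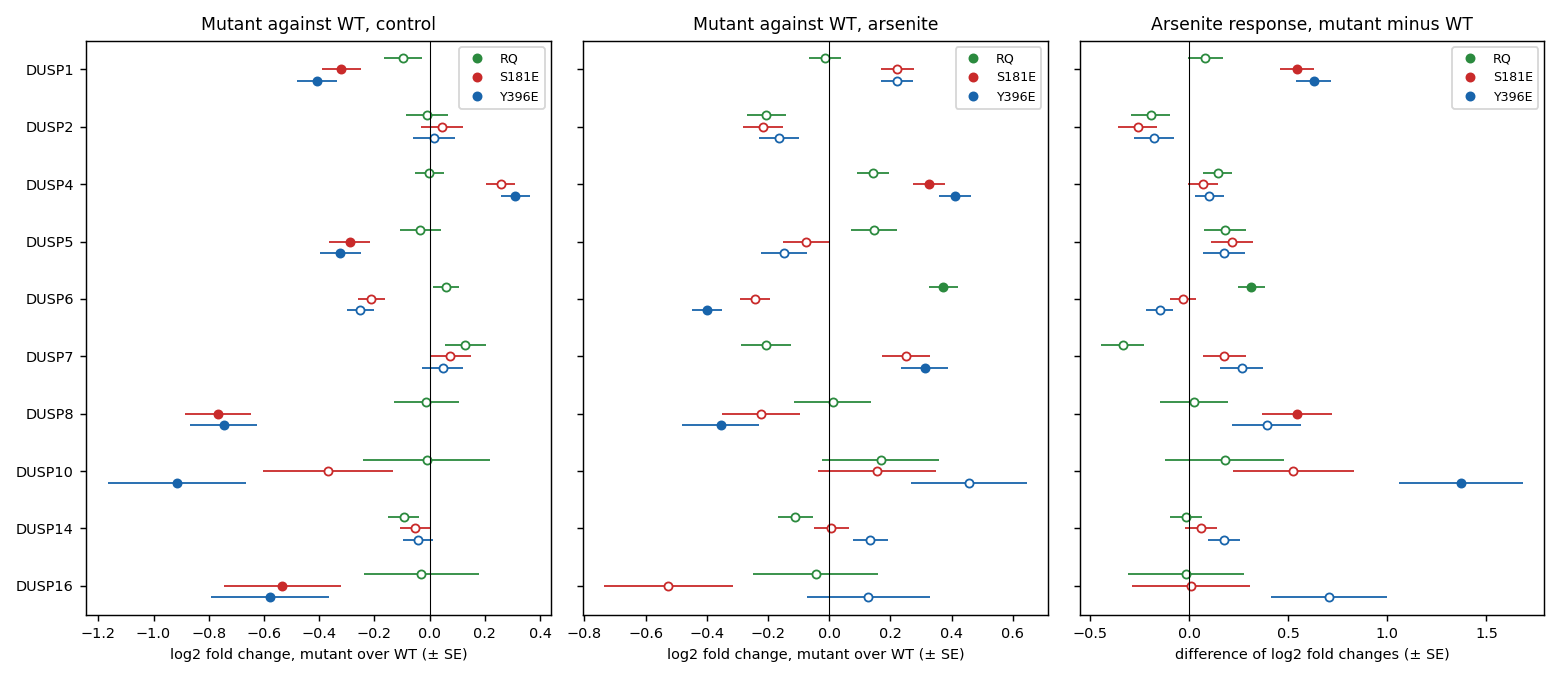
Left and centre, log2 fold change of each mutant over WT in control and with arsenite, and right, the arsenite log2 fold change of each mutant minus that of WT, all with SE and filled where called. In control, DUSP8 lies near -0.77 in S181E and -0.75 in Y396E and near 0 in RQ, and on the right DUSP1 is at 0.54 in S181E and 0.63 in Y396E.

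The mutants were then compared with WT after arsenite. In S181E cells 1 of 9 genes was higher, DUSP4 (0.33 ± 0.05, background 5.32%), and 0 were lower (background 8.42%). DESeq2 also called 0 lower, and 3 of 9 were lower at an unadjusted p under 0.05 in edgeR. DUSP7 was at 0.25 ± 0.08, just under the fold threshold, and was called by DESeq2 (0.27). Also under the fold threshold were DUSP6 at -0.24 ± 0.05 (edgeR adjusted p = 0.000467) and DUSP2 at -0.22 ± 0.07 (0.0173). Neither overlapped with WT on the TMM scale, and DUSP2 did as CPM of all counts. DUSP16 had -0.53 ± 0.21 with an edgeR adjusted p of 0.0732, and it was called when Y396E arsenite replicate 3, which is no part of this comparison but enters the shared estimate of spread, was left out (adjusted p = 2.37e-05). Leaving out Y396E arsenite replicate 1 or 2 also gave a call (0.0401 and 0.0373). In Y396E cells 2 of 9 were higher, DUSP4 (0.41 ± 0.05) and DUSP7 (0.31 ± 0.08), against a background of 9.77%. Another 2 were lower, DUSP6 (-0.40 ± 0.05) and DUSP8 (-0.35 ± 0.13), against 11.9%. Without Y396E arsenite replicate 3, DUSP7 was at 0.26 and DUSP8 at -0.21, neither called, while DUSP4 was at 0.45 and DUSP6 at -0.37, both called. The DUSP8 call was also lost without WT arsenite replicate 1 (-0.30) or 2 (-0.34) and with scaling by library totals (-0.33). DUSP10, in the fit with the lower filter, was at 0.46 ± 0.19 with an edgeR adjusted p of 0.0696, and at 0.21 (0.26) without Y396E arsenite replicate 3. It was called without Y396E arsenite replicate 1 (0.59) or 2 (0.54). In RQ cells DUSP6 alone was called, 1.29-fold higher than in WT (0.37 ± 0.05, edgeR adjusted p = 1.33e-05), where 1.36% of genes were called higher and 0.154% lower. For members lower in RQ cells the count was 0 in edgeR and in DESeq2, with 2 of 9 lower at an unadjusted p under 0.05. DUSP1, at 0.22 ± 0.05 in both phosphomimetic populations (edgeR adjusted p = 0.00269 and 0.00209), was under the fold threshold although the libraries did not overlap with WT.

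S181E and Y396E were also compared with each other. edgeR called 0 of 9 phosphatase genes and 0 of 9099 genes (0%) in control, and 0 of 9 and 0 of 9099 (0%) with arsenite. DESeq2 called 0 members in either treatment and 1 and 10 genes of the whole table. At an unadjusted p under 0.05 there were 0 members and 289 genes in control, and 3 members and 1375 genes with arsenite. The 3 members were DUSP6 (-0.16 ± 0.05), DUSP14 (0.13 ± 0.06) and DUSP16 (0.65 ± 0.21), the last of which was at 0.10 without Y396E arsenite replicate 3. These 3 were named after their values were seen.

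Whether the arsenite response itself differed between a mutant and WT was tested as the difference of the log2 fold changes. DUSP1 rose more in S181E than in WT by 0.54 ± 0.09 (edgeR adjusted p = 0.000261) and more in Y396E by 0.63 ± 0.09 (4.43e-05). Both differences were called in all 24 fits that left out 1 library, between 0.43 and 0.60 and between 0.52 and 0.70. They combine the higher arsenite level with the lower TMM-scaled control level described above, which overlapped WT without TMM. DUSP8 fell less in S181E than in WT by 0.54 ± 0.18 (edgeR adjusted p = 0.0324), a call that held in 14 of 24 such fits, with adjusted p up to 0.0872, and was lost with scaling by library totals (0.43). The libraries whose omission ended it were the 3 WT control, the 3 S181E arsenite, S181E control replicates 1 and 2, and WT arsenite replicates 2 and 3. DUSP1 and DUSP8 were 2 of 9 called toward a higher response in S181E (background 6.98%), with 0 toward a lower one (background 9.41%). In Y396E, DUSP1 was 1 of 9 (background 10.3%), with 0 lower (background 11.1%). DESeq2 likewise called 0 lower in either case, and at an unadjusted p under 0.05 there was 1 of 9 lower in S181E and 1 of 9 in Y396E. For DUSP8 the Y396E difference was 0.39 ± 0.17, not called, and 0.53 without Y396E arsenite replicate 3 (edgeR adjusted p = 0.00838), called. In the fit with the lower filter, DUSP10 rose more in Y396E than in WT by 1.37 ± 0.31 (edgeR adjusted p = 0.00479, background 7.6%), and by 1.13 without that library (adjusted p = 0.00261). In S181E the DUSP10 difference was 0.53 ± 0.30 and was not called.

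DUSP6 was the only member whose arsenite response was called different in RQ, larger than in WT by 0.31 ± 0.07 (edgeR adjusted p = 0.0477, background 0.22% higher and 0% lower). Its edgeR call held in 6 of 24 fits that left out 1 library, and in the 18 others the adjusted p lay between 0.0506 and 0.225. It was lost without any 1 of 18 libraries, all but RQ arsenite replicate 1, RQ control replicate 3, WT control replicate 2 and the 3 Y396E arsenite libraries. The call was also lost with DESeq2 size factors (adjusted p = 0.0834), library totals (0.367), the lower filter (0.0625), no filter (0.221), all gene types (0.0561) and a fit restricted to the WT and RQ groups (0.0972). The RQ value of DUSP7 was -0.34 ± 0.11, with an adjusted p of 0.602. In edgeR 0 members were called lower, DESeq2 called 0, and 1 of 9 was lower at an unadjusted p under 0.05.

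Levels of different genes were compared per kilobase of exon length. In WT control cells DUSP5 led with 238 ± 21.7 CPM per kilobase (SD, n = 3), followed by DUSP6 (34.8 ± 1.84), DUSP14 (33.1 ± 1.21) and DUSP4 (30.0 ± 2.72), whose neighbouring ranges overlapped. DUSP2 (17.6 ± 0.447), DUSP7 (13.5 ± 0.529), DUSP1 (7.90 ± 0.961), DUSP8 (5.44 ± 0.280), DUSP16 (2.06 ± 0.128) and DUSP10 (0.614 ± 0.107) came below, each apart from the next. After arsenite DUSP5 still led in WT with 212 ± 4.53 CPM per kilobase, and DUSP2 (129 ± 6.44) and DUSP1 (109.6 ± 2.54) had moved to the ranks just under it. DUSP8 (2.51 ± 0.208), DUSP16 (2.19 ± 0.137) and DUSP10 (2.18 ± 0.181) then shared the lowest place with overlapping ranges. In S181E and Y396E control cells DUSP4, at 35.9 ± 0.841 and 37.3 ± 2.06 CPM per kilobase, ranked above DUSP6 (30.1 ± 0.518 and 29.2 ± 1.09) without overlap. With arsenite DUSP1 (128 ± 3.42 and 128 ± 3.62) ranked above DUSP2 (111 ± 7.77 and 115 ± 7.49) in these populations without overlap, the reverse of WT, and in RQ cells their ranges overlapped.

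Summed by role, the 4 nuclear genes made up 76.6% ± 1.41 of the level of the 10 genes per kilobase in WT control cells and 86.0% ± 0.293 with arsenite. The share of the 2 cytoplasmic genes went from 12.6% ± 0.450 to 9.24% ± 0.324 while their sum was 48.3 ± 1.52 CPM per kilobase in control and 50.7 ± 0.835 with arsenite, so the share went down beside a larger nuclear sum. The share of the 3 genes directed at JNK and p38 went from 2.12% ± 0.0664 to 1.25% ± 0.0386. DUSP14 went from 8.67% ± 0.909 to 3.53% ± 0.0894. The nuclear share was 75.8% ± 1.45 and then 86.9% ± 0.358 in S181E, 75.8% ± 0.745 and 86.9% ± 0.556 in Y396E, and 76.0% ± 2.02 and 84.4% ± 0.444 in RQ. The cytoplasmic genes summed to 63.1 ± 1.80 CPM per kilobase in RQ arsenite cells and 51.1 ± 1.63 in RQ control cells. In S181E the sums were 44.3 ± 0.553 in control and 44.8 ± 0.918 with arsenite, and in Y396E they were 43.2 ± 0.272 and 41.2 ± 1.76. The sums of the JNK and p38 phosphatases in control were 8.11 ± 0.360 CPM per kilobase in WT and 8.02 ± 0.935 in RQ, and 5.09 ± 0.299 in S181E and 4.93 ± 0.563 in Y396E. With arsenite their means were lower in WT (6.88 ± 0.221) and in RQ (7.11 ± 0.194, with overlapping libraries). They were higher in S181E (6.09 ± 0.260) and in Y396E (7.36 ± 1.84). The 3 Y396E arsenite libraries held 6.20, 6.39 and, in replicate 3, 9.48. No test was run on these sums.

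**Figure D4:**
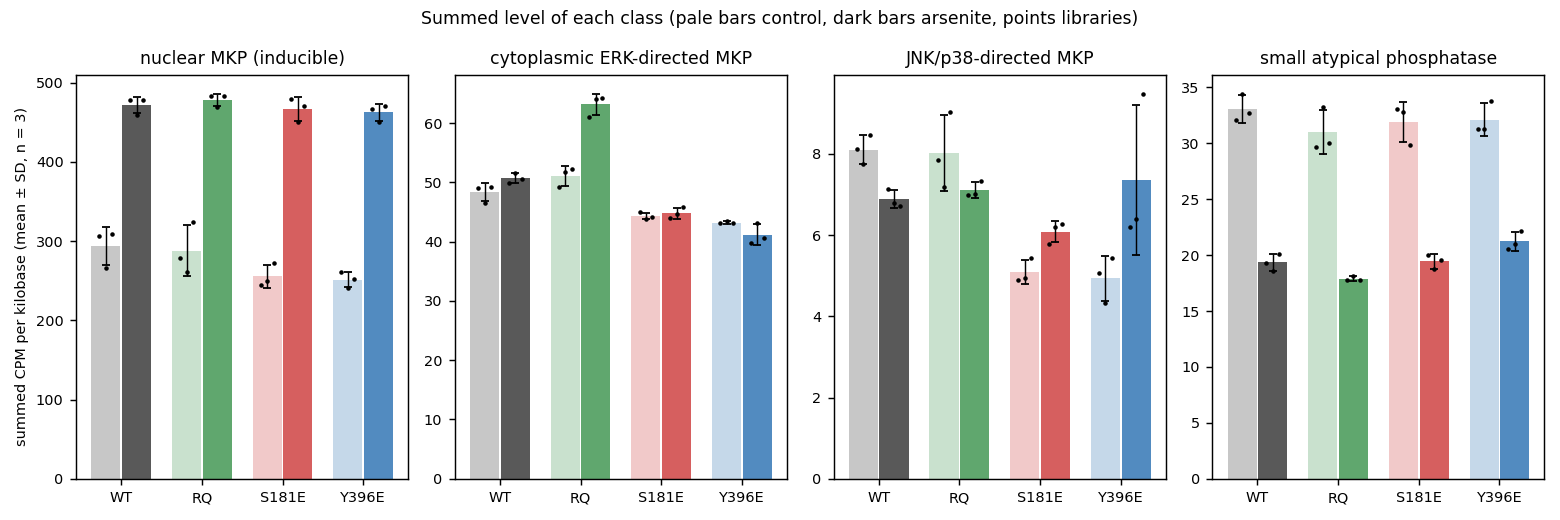
Summed CPM per kilobase of the 4 roles in each population, with bars for means, error bars for SD over 3 libraries and points for libraries, pale for control and dark for arsenite, each panel on its own axis from 0. The nuclear sum rises from 294 to 472 in WT, the cytoplasmic sum is highest in RQ arsenite cells at 63.1, and the JNK and p38 sum is lowest in S181E and Y396E control cells.

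Other genes of the pathway moved by less than DUSP1 and DUSP2 when WT cells received arsenite. All 3 tested Sprouty and SPRED genes, feedback inhibitors of growth factor signalling to ERK, were called lower, SPRED2 at -1.16 ± 0.05, SPRED1 at -1.15 ± 0.07 and SPRY4 at -0.72 ± 0.05. Of 6 tested ERK output genes, which also count SPRY4, 1 was called higher, the transcription factor gene ETV5 (0.44 ± 0.06), and 4 lower, among them PHLDA1 (-0.46 ± 0.04). Of 6 other DUSP genes, 2 were higher, DUSP9 (0.41 ± 0.11) and DUSP11 (0.26 ± 0.09), and 4 lower, led by DUSP3 (-1.08 ± 0.05) and DUSP23 (-0.69 ± 0.09). DUSP9 is the third cytoplasmic phosphatase of ERK, and DUSP11 acts on RNA. Among the kinases, 1 of 9 MAP kinases was higher (MAPK14, which encodes a p38 kinase, 0.42 ± 0.08) and 3 lower, including MAPK11 (-0.42) and MAPK9 (-0.40), which encode another p38 kinase and a JNK. Upstream of them, 1 of 6 MAP kinase kinases was higher (MAP2K7, the activator of JNK, 0.45 ± 0.12) and 3 lower, led by the p38 activator MAP2K3 (-1.07 ± 0.05) and by MAP2K4 (-0.40). Of 16 kinases at the top of the cascades, 6 were higher, with MAP3K6 (1.02 ± 0.11) and MAP3K5 (0.91 ± 0.09) first, the latter a redox-sensitive activator of the JNK and p38 cascades, and 4 lower, with MAP3K9 (-0.50) and ARAF (-0.48) first. Of 9 kinases activated by MAP kinases, 1 was higher (RPS6KA1, 0.50 ± 0.06) and 3 lower, led by MAPKAPK3 (-0.67 ± 0.04) and MAPKAPK5 (-0.60). Over all tested genes 36.3% were called higher and 35.9% lower in this comparison. The median log2 fold change of the lists ran from -1.15 for the Sprouty and SPRED genes to -0.05 for the MAP kinase kinases, where the median of all tested genes was -0.01.

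**Figure D5:**
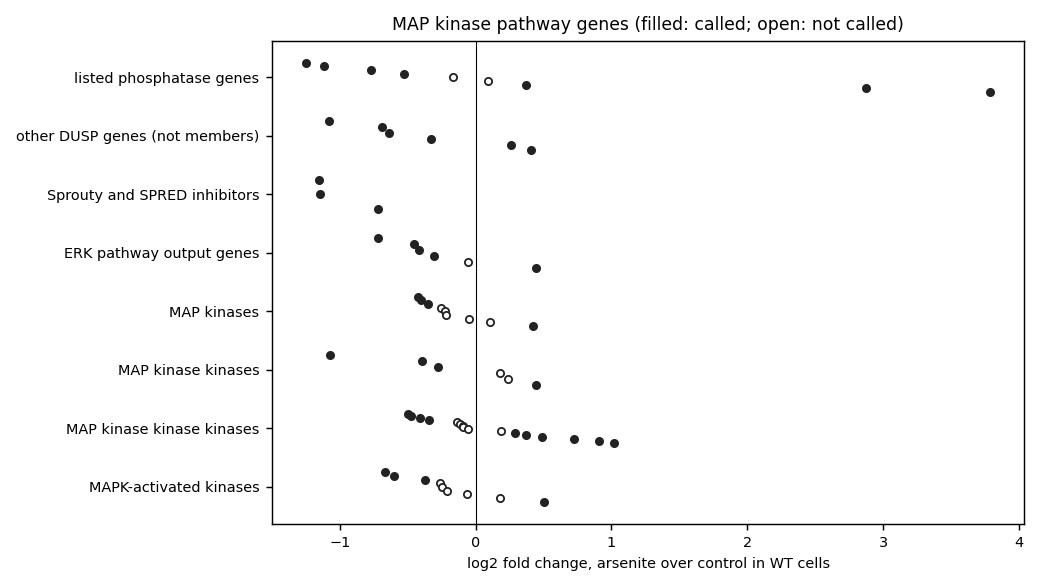
Log2 fold change, arsenite over control in WT cells, for the 9 tested phosphatase genes and 7 lists of pathway genes, with filled points called and open points not. DUSP1 at 3.79 and DUSP2 at 2.87 lie above every gene of the 7 lists, the highest of which is MAP3K6 at 1.02, and DUSP7 at -1.25 lies beside SPRED2 at -1.16.

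In S181E control cells against WT, SPRY4 was lower (-0.64 ± 0.05), the only call among the 3 Sprouty and SPRED genes. CCND1, an ERK output gene that encodes cyclin D, was higher (0.49 ± 0.06), as were 2 of 6 other DUSP genes, DUSP9 (0.59 ± 0.11) and DUSP12 (0.30 ± 0.06), and MAP3K5 (0.52 ± 0.09). Of 9 tested MAP kinases 2 were called higher, among them the JNK gene MAPK9 (0.31 ± 0.05). MAP3K11 (-0.29) was the 1 of 16 upstream kinases that was lower, RPS6KA4 (0.32) the 1 of 9 MAPK-activated kinases that was higher, and 0 of 6 MAP kinase kinases were called. Over all tested genes 15.7% were called higher and 15.4% lower in this comparison, and the shares of 1 in 16 and 1 in 9 lie below that. DUSP9 was thus higher where DUSP1, DUSP5, DUSP8 and DUSP16 were lower.

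The genes most like each phosphatase gene were found by Pearson's r of log2 CPM over the 24 libraries, as a description. The libraries share treatment, so a high r follows from any large arsenite change. DUSP1 and DUSP2 had the same pair, FOS (r = 0.996 for both), an AP-1 subunit gene, and GBF1 (r = 0.995 and 0.996). DUSP7 was closest to BAG1 and C12orf75 (both 0.988), DUSP14 to KXD1 (0.991) and ID2 (0.990), DUSP4 to PPARD (0.978) and TTC7A (0.966), and DUSP8 to CCDC120 (0.977) and MARVELD1 (0.975). DUSP6 was closest to PDCD4 (0.962) and GOLGB1 (0.956). Lower values were found for DUSP16, with TP53I3 (0.909) and SYNE4 (0.895), and for DUSP5, with PLK3 (0.858) and JUND (0.847).

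The parental cells, with 1 library per treatment, allowed no test. DUSP1 went from 14.2 CPM in control to 176 CPM with arsenite, DUSP2 from 28.0 to 169 CPM and DUSP10 from 0.625 to 5.64 CPM. DUSP4 went from 308 to 183 CPM, DUSP7 from 52.7 to 19.0 CPM, DUSP8 from 20.4 to 12.8 CPM and DUSP14 from 83.4 to 49.4 CPM. Each of these moved the same way as in the 4 populations. DUSP5 went from 706 to 468 CPM, a wider gap than between the group means of any mCherry-IGF2BP1 population. DUSP6 was at 94.5 and 109 CPM, below every other library of the same treatment, and DUSP16 at 12.5 and 14.9 CPM.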

How the data were processed

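The deposited values are raw, whole-number read counts per gene, which the authors made with featureCounts 2.0.6 (strand setting 2, GENCODE release 46) per the file headers, with STAR 2.7.11b and hg38 named in the submitters' processing notes. Counts came from poly(A) RNA of clarified lysates, so RNA removed with the pellet was not counted. Its part in the arsenite changes was not tested. Symbols came from GENCODE release 44 (62541 of 63086 identifiers). The command in the headers set no option for multi-mapping or overlapping reads. The members and lists were chosen with earlier results of these data known.

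Groups came from the sample labels. Protein-coding genes over 10 CPM in at least 12 of 24 libraries were tested in R 4.3.3 with edgeR 4.0.16 (TMM factors 0.865 to 1.09, 1 mean per group, 16 residual degrees of freedom). Calls needed an adjusted p under 0.05 and a fold over 1.2. All 10 members, the 2 most changed called genes per pathway list and direction, and the 2 most similar genes per member were named. A gene that this rule selects is not reported here. The procedure was tested on simulated data. Depth per library gives counting error only, and replicate dishes were plated independently. Chi-square per gene between replicates was 2.96 to 70.3, above counting noise. Replicate numbers paired RQ with WT samples, since deviations from group means correlated over 0.1 in all 3 pairs in control (0.291, 0.525 and 0.472) and in arsenite (0.148, 0.147 and 0.15). In no other comparison did all 3 pairs pass 0.1. Single pairs did, among them S181E with WT in control (0.239 and 0.309 for replicates 2 and 3) and Y396E with WT in control (0.421 for replicate 3). Alternatives were other scaling, DESeq2 1.42.0, other filters, fewer groups, a replicate block, other fold thresholds and leaving out each library.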

Additional observations from a re-analysis of the deposited data

Results flagged for a closer look

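The difference between the arsenite log2 fold change of a mutant and that of WT passed both thresholds for 5 values, which were singled out because the test of the difference itself was passed. DUSP1 had 0.54 in S181E and 0.63 in Y396E. DUSP8 had 0.54 in S181E. DUSP6 had 0.31 in RQ. DUSP10 had 1.37 in Y396E in the fit with the lower filter. DUSP1 in both populations and DUSP10 in Y396E were called in all 24 fits that left out 1 library, DUSP8 in 14 of 24 and DUSP6 in 6 of 24.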

How the results depend on the processing

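Of the values per gene and comparison, 135 of 135 stayed on their side of the thresholds with a replicate block (7 members called for arsenite in WT, as without the pairing), and it changed no count of members called. DESeq2 size factors in edgeR gave 2 members called for S181E against WT in arsenite (1 as reported) and 0 for the RQ response difference (1). Library totals gave 2 for S181E and 3 for Y396E against WT in control (4 and 5), 3 for S181E in arsenite, 2 for the Y396E response difference (1), with DUSP2 added at -0.28, and 0 for that of RQ. DESeq2 gave 2 for S181E in arsenite. The lower filter, no filter and all gene types each gave 0 for the RQ response difference. Fitting only the groups compared gave 2 for S181E and 2 for Y396E in arsenite (1 and 4) and 0 for the RQ response difference, with DUSP7 (adjusted p = 0.0523) and DUSP8 (0.176) no longer called in Y396E, and it ended the DUSP16 call for arsenite in Y396E (0.0587). No fold threshold gave 5 for S181E in arsenite. A fold over 2 gave 4, 3, 2 and 4 for arsenite in WT, S181E, Y396E and RQ (7 each) and 0 for all mutant against WT comparisons and response differences. Leaving out 1 library gave 6 to 7 for arsenite in Y396E, 1 to 4 for S181E in control and 1 to 3 for S181E in arsenite. It gave 0 to 1 for Y396E against S181E in arsenite, 1 to 3 for the S181E and the Y396E response differences and 0 to 1 for that of RQ. Without Y396E arsenite replicate 3, DUSP16 in Y396E against WT in arsenite reversed to -0.43 (0.13 as reported), and its values over all such fits reached 0.35. Beyond what a sentence states, the cause was not tested. DUSP10 was tested in the fit with the lower filter, and its fits without 1 library were chosen after seeing the data. Its depth, 16 to 406 counts, limits its precision.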
